A study of Mus musculus with 4 samples.

Results

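Amino acid transporters are the membrane proteins through which an activated T cell takes up the building blocks for growth. The genes described here are 10 transporter genes linked to activated T cells, chosen by symbol from the deposited count tables. All 10 symbols were present among 23238, and 9 of them passed the filter on low counts and were tested among 11464 genes. The study compared CD4+ T cells of wild-type and PDK4 KO genotype, both on strain C57BL/6j, with 2 libraries of each. Pdk4 encodes a mitochondrial kinase that restrains the pyruvate dehydrogenase complex. Naive cells had been isolated from spleen and lymph nodes by magnetic sorting, then activated in culture over 48 hours with CD3, CD28 and IL-2, so both genotypes received added IL-2. The labels do not give the design of the Pdk4 allele, the age or sex of the animals, or whether replicates came from separate mice. The p-values therefore cover only variation among the 4 libraries, part of which may be technical.

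Naive T cells need little amino acid import, and activation through the antigen receptor and CD28 raises the surface transporters for large neutral amino acids, glutamine and arginine. Slc7a5 and Slc3a2 form a heterodimer, system L, in which Slc7a5 is the transporting light chain for leucine and other large neutral amino acids and Slc3a2 (CD98) is the heavy chain that carries it to the surface. Leucine and arginine inside the cell are read by sensor proteins that control the kinase complex mTORC1, while a shortage of amino acids raises the factor ATF4, which induces many transporter genes in mammalian cells.

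The wild-type libraries held 8837810 and 9575879 counts (replicates 1 and 2) and the knockout libraries 9739624 and 9104413. Levels are CPM (counts scaled to a common library total) scaled by TMM, given per library or as mean ± SD of n = 2. Libraries were made with a kit that reads the 3' ends of transcripts, so a level stands for tags per transcript and is not divided by gene length. Pdk4 had 1 and 0 counts in the wild-type and 0 and 2 in the knockout libraries, under a floor of 3 counts (0.307 to 0.341 CPM), so it was no check of the labels. The T cell markers Cd3d (643 and 684 CPM in wild type, 585 and 603 CPM in knockout) and Cd4 (251 to 269 CPM) were high in all 4 libraries. For 5 of the tested CD4 T cell markers both knockout libraries lay below both wild-type libraries, and for 1 above. Over all tested genes these shares were 21.9% and 21.5%. An unadjusted p under 0.05 in edgeR was found for 6 of these markers, beside 13.5% of all tested genes. Of 13 tested CD4 T cell markers, Cd2 fell (842 ± 7.23 to 635 ± 13.7 CPM) and Cd5 rose (275 ± 12.5 to 337 ± 19.9), and 1 marker was called without wild-type replicate 2 or without either knockout library. The 16 myeloid markers summed to between 28.3 and 40.6 CPM, mostly Ly6c2 (15.7 to 27.1 CPM). Of 6 tested, 0 passed the test in edgeR, DESeq2 and limma-voom, where edgeR called 2.66% of all tested genes. In edgeR 1 had an unadjusted p under 0.05, as did 13.5% of all tested genes. The macrophage markers Lyz2 and Csf1r were at or under 0.634 CPM. Cd68, named after its values were seen, was at 3.53 and 3.59 CPM in wild type and 0.409 and 6.53 CPM in knockout. The B cell marker list summed to 317 and 357 CPM in the wild-type and 177 and 189 CPM in the knockout libraries. Cd74, which did not pass, held 85.9 and 119 CPM of these in wild type and 87.0 and 101 CPM in knockout. Of 14 tested B cell markers, 11 fell in the knockout, while over all tested genes 1.45% rose and 1.21% fell. Without wild-type replicate 2 the number called was 6. Pax5 had 0 counts in every library and Cd22 had 0 in both knockout libraries. Of 16 tested CD8 T and NK cell markers, 3 fell and 1 rose, with sums of 654 and 666 CPM against 481 and 438 CPM, and 2 were called without knockout replicate 1. Gzma, a granule protease, fell from 220 and 219 CPM to 76.2 and 51.3 CPM, and the chemokine Ccl5 rose from 15.0 and 14.4 CPM to 34.8 and 32.3 CPM. Klrc1 and Fcer1g were the other falls. Cd8b1 overlapped between genotypes, at 23.2 and 16.4 CPM against 11.7 and 20.5 CPM. Cd8a was at 2.62 and 2.96 CPM in wild type and at 0.409 and 0.544 CPM in knockout. The NK cell marker Ncr1 had 13, 0, 9 and 5 counts. Klrb1c, an NK cell marker named after its values were seen, had 31 and 46 counts in wild type and 11 and 7 in knockout (adjusted p = 0.0887, edgeR). For 8 of the 16 both knockout libraries lay below both wild-type libraries, and for 1 above, beside 21.9% and 21.5% of all tested genes. The part of these other cells in the transporter results was not tested, and in bulk RNA fewer cells of a type cannot be told apart from less RNA per cell.

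Knockout libraries had somewhat more mRNA for the arginine transporter Slc7a1 and the glycine transporter Slc6a9, and the other 7 tested transporters did not pass the test. In edgeR's quasi-likelihood test with adjustment over all genes, 2 of the 9 rose and 0 fell, where 2.66% of all tested genes were called and 1.45% were called as rises. Both rises were small, at 1.25-fold and 1.32-fold. Estimates were above 0 for 8 of the 9 transporters, as they were for 50.1% of all tested genes. The median log2 fold change of the 9 was 0.18, beside 0.00 for all tested genes, and moved to 0.0892 when wild-type replicate 2 was left out and to 0.265 when wild-type replicate 1 was. For 6 of the 9 both knockout libraries lay above both wild-type libraries, a pattern found in 21.5% of all tested genes, and for 0 of the 9 both lay below, as in 21.9% of all tested genes. Of the 9, 3 had an unadjusted p under 0.05, as did 13.5% of all tested genes. Members differ in depth, and among the 6288 tested genes at or above the level of the lowest tested transporter, 3.75% were called.

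**Figure D1:**
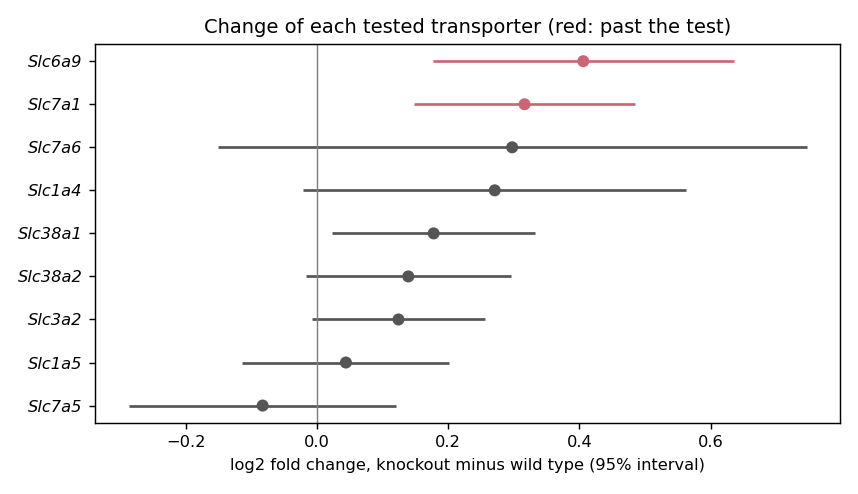
Log2 fold change of the 9 tested transporters, knockout minus wild type, as points with 95% intervals from edgeR's fit, ordered by size. Slc6a9 (0.41) and Slc7a1 (0.32), in red, passed the test, and Slc7a5 was the only estimate below 0.

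The single libraries show where these estimates come from. Knockout replicate 1 had the highest level for 6 of the 9 tested transporters and knockout replicate 2 for the other 3. Wild-type replicate 2 had the lowest level for 6 of the 9, wild-type replicate 1 for 2, and knockout replicate 1 for 1, which was Slc7a5. Over all tested genes each library was lowest in 23.8% to 26.0%. Summed over the 10 transporters, the level was 2446 and 2270 CPM in wild type, against 2630 and 2609 CPM in knockout, or 0.243%, 0.224%, 0.264% and 0.263% of all counts in the 4 libraries.

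**Figure D2:**
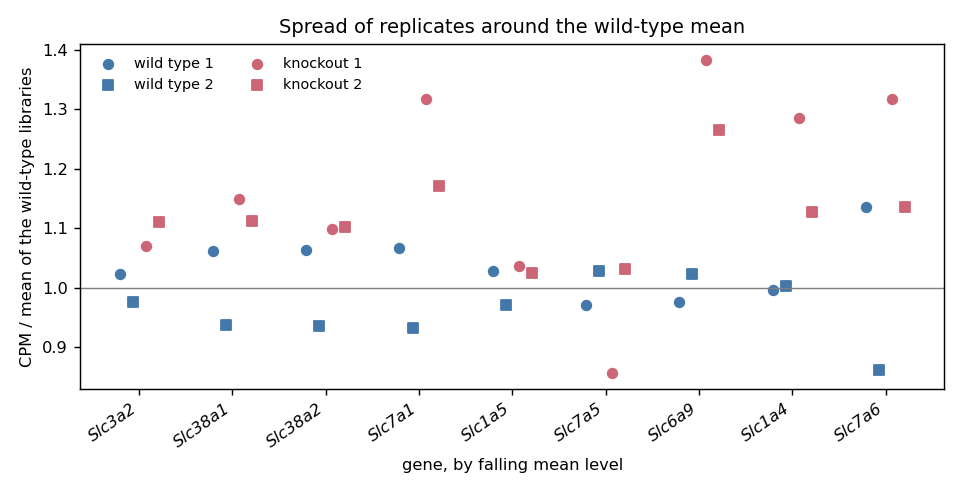
Level of each tested transporter in each library, divided by the mean of the wild-type libraries (line at 1). Blue symbols are wild type, red symbols are knockout, circles are replicate 1 and squares replicate 2. Wild-type replicate 2 is lowest for 6 genes, and the genotypes overlap for Slc1a5, Slc7a5 and Slc7a6.

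In the order of levels, Slc3a2 stood highest with a mean of 773 CPM over the 4 libraries, 1.91 times the next gene. Slc38a1 (404 CPM), Slc38a2 (392 CPM), Slc7a1 (313 CPM) and Slc1a5 (303 CPM) followed, and the ranges of neighbours over the 4 libraries overlapped. Within each library Slc38a1 was above Slc38a2, and Slc38a2 above Slc7a1. Slc7a1 was below Slc1a5 in both wild-type libraries and above it in both knockout libraries. Slc7a5 (144 CPM), Slc6a9 (90.7 CPM), Slc1a4 (47.5 CPM) and Slc7a6 (20.1 CPM) came next, with no overlap between neighbours. Slc43a1 was last at 0.212 CPM. These are tag levels, and how well the 3' end of each transcript is captured and aligned may differ between genes. Counting error alone was small for most members, from 1.14% of the count for Slc3a2 in its deepest library to 8.25% for Slc7a6 in its shallowest.

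**Figure D3:**
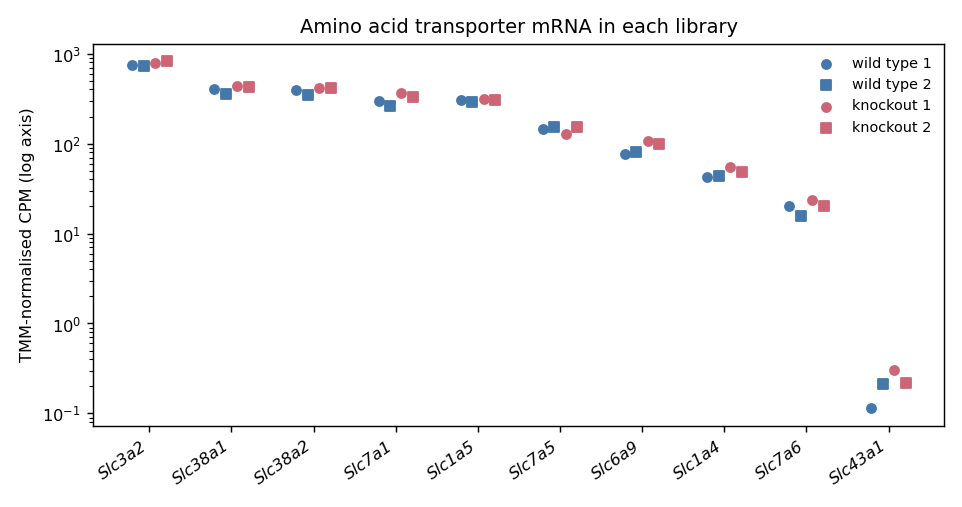
TMM-normalised CPM of the 10 transporters in each of the 4 libraries, on a log axis, ordered by mean level. Levels span from 723 to 822 CPM for Slc3a2 down to 0.114 to 0.307 CPM for Slc43a1. Over the 4 libraries the ranges of Slc38a1, Slc38a2, Slc7a1 and Slc1a5 overlap those of their neighbours in this order.

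Promoter sequences of 7 of the 10 transporters were found in the RefSeq table (GRCm38.p6, 250 bases before to 50 after a transcription start), in 11 windows. They were searched for the core of the composite element that ATF4 binds with C/EBP partners (TGATGNAA, or TTNCATCA on the other strand) and for the E-box that MYC binds (CACGTG, which reads the same on both strands). Among all 32851 windows, 3.97% held the composite core and 7.15% the E-box. Counted by gene, 4.51% of 27025 genes had a window with the composite core and 8.09% a window with the E-box. Slc7a5, Slc1a5 and Slc38a1 had no window. Of the 7 transporters searched, Slc1a4 was the only one with a composite match, which began 4 bases before the start site. Slc43a1 was the only one with an E-box. Asns, the asparagine synthetase gene that rose in these cells (values below), had a composite match that began 23 bases before its start. Slc7a1 and Slc6a9, which also rose, had neither motif in their windows. A match describes letters and shows no binding, and a missing match says only that these letters are not in the window. A window each of Slc1a4, Asns and Slc7a1 is shown, and another Slc7a1 window, at chr5:148392766-148393065, is not. The windows shown pair the transporter with a match, a well-known ATF4 target that rose, and a transporter that rose without a match. Capitals mark the composite core, each window is read 5' to 3' on its gene's strand, and all 3 lie on the minus strand, at chr11:20332664-20332963 (Slc1a4), chr6:7693160-7693459 (Asns) and chr5:148399855-148400154 (Slc7a1).
Slc1a4: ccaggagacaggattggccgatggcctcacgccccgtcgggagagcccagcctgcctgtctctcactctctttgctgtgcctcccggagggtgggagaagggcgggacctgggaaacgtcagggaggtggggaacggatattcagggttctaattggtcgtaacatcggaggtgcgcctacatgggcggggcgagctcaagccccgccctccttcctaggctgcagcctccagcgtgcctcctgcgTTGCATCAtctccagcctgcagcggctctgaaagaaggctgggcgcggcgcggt
Asns: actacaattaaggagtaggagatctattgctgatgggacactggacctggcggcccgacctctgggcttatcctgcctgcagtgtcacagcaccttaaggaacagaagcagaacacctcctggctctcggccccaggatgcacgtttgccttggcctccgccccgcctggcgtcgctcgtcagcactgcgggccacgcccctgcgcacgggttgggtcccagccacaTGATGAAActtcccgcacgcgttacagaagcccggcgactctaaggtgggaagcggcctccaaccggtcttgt
Slc7a1: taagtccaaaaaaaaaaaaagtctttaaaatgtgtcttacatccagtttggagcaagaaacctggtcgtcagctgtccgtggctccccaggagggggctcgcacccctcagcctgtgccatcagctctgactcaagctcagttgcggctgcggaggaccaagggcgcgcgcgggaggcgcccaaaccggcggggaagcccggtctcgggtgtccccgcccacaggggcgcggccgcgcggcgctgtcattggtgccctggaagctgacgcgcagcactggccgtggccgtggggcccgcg

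Slc7a1 encodes CAT1, the sodium-independent carrier of arginine and lysine, and lies on chromosome 5 (148327410 to 148399904, minus strand, GRCm38, GENCODE vM21). Wild-type replicates 1 and 2 had 298 and 260 CPM, and knockout replicates 1 and 2 had 368 and 327 CPM. Both knockout libraries were above both wild-type libraries, the lower knockout library being 1.10 times the higher wild-type library. It rose by 0.32 on the log2 scale (SE 0.0828, adjusted p = 0.0274, edgeR), a 1.25-fold change with a 95% interval of 1.11 to 1.40. Replicates of a genotype themselves differed 1.14-fold in wild type and 1.12-fold in knockout. The call was lost without wild-type replicate 2 (log2 fold change 0.22, adjusted p = 0.362), without knockout replicate 1 (0.23, adjusted p = 0.439) and with upper quartile scaling (adjusted p = 0.0668).

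Slc6a9 encodes GlyT1, a sodium-driven glycine transporter (chromosome 4, 117834506 to 117875198, plus strand). It had 76.2 and 79.9 CPM in wild type and 108 and 98.8 CPM in knockout. The genotypes did not overlap, and the lower knockout library was 1.24 times the higher wild-type library, the widest gap of the 9. It rose by 0.41 on the log2 scale (SE 0.113, adjusted p = 0.042, edgeR), or 1.32-fold with an interval of 1.13 to 1.55. This call was lost without any 1 of the libraries, at adjusted p = 0.18 and 0.131 without wild-type replicates 1 and 2, and 0.366 and 0.0789 without knockout replicates 1 and 2. It was also lost with upper quartile scaling (0.0691) and with DESeq2 (0.0739). The estimate itself stayed between 0.34 and 0.47 over all 13 alternatives. The value is uncertain for a further reason. Ccdc24 on the opposite strand shares 1429 of the 5141 exonic bases of Slc6a9, and the use of strand in counting is not given in the sources used here. Its level ran the same way, at 41.2 and 52.7 CPM in wild type and 70.7 and 56.7 CPM in knockout (log2 fold change 0.44, adjusted p = 0.119). None of the shared bases lie within 1000 bases of the 3' end of Slc6a9 or of Ccdc24. B4galt2, also on the opposite strand, shares 46 exonic bases with Slc6a9 near its own 3' end and had 4, 6, 10 and 17 counts. The noncoding gene Gm17114, not analysed here, shares 511. Ccdc24 and B4galt2 were named after their values were seen.

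The leucine transporter showed no such rise. Slc7a5 (LAT1, chromosome 8, 121881150 to 121907694, minus strand) had 144 and 152 CPM in wild type and 127 and 153 CPM in knockout. Knockout replicate 1 was the lowest of the 4 libraries and knockout replicate 2 the highest, so the wild-type values lay within the knockout range. The log2 fold change was -0.08 (SE 0.1, adjusted p = 0.802, edgeR), and its 95% interval ran from 0.820-fold to 1.09-fold, so rises above 1.09-fold lie outside it. Without knockout replicate 1 the sign turned to 0.04 (adjusted p = 0.956), and without knockout replicate 2 the estimate was -0.22 (adjusted p = 0.461).

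Its heavy chain Slc3a2 (chromosome 19, 8706882 to 8723369, minus strand) had 757 and 723 CPM in wild type and 791 and 821 CPM in knockout. Both knockout libraries were higher, by little. The fold change was 1.09 with an interval of 0.994 to 1.19 (adjusted p = 0.411, edgeR). The count ratio of Slc7a5 to Slc3a2 was 0.190 and 0.211 in the wild-type libraries, against 0.161 and 0.186 in the knockout. Both knockout ratios lay below both wild-type ratios, with 2 libraries against 2, where a two-sided exact permutation test cannot go below p = 0.333 and was not run. Slc7a6 (y+LAT2, chromosome 8, 106168857 to 106198706, plus strand) is another light chain that pairs with Slc3a2 and exchanges cationic for neutral amino acids. Its level was low, at 20.5 and 15.5 CPM in wild type and 23.7 and 20.5 CPM in knockout. Knockout replicate 2 and wild-type replicate 1 were nearly the same, so the groups touched. Wild-type replicates differed 1.32-fold, and the estimate of 1.23-fold had a wide interval of 0.900 to 1.68 (adjusted p = 0.619). Leaving out wild-type replicate 2 gave a log2 fold change of 0.11, and leaving out wild-type replicate 1 gave 0.51.

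The exchangers Slc1a5 and Slc1a4 did not pass the test. Slc1a5 (ASCT2, chromosome 7, 16781340 to 16798274, plus strand), an exchanger that brings glutamine into activated T cells, had 307 and 290 CPM in wild type and 310 and 306 CPM in knockout. The groups overlapped, and the fold change was 1.03 with an interval of 0.924 to 1.15 (adjusted p = 0.879, edgeR). A rise as large as that of Slc7a1 (1.25-fold) lies outside this interval, although the difference between these genes was not tested. Slc1a4 (ASCT1, chromosome 11, 20302180 to 20332713, minus strand), a related exchanger of alanine, serine and cysteine, had 42.9 and 43.2 CPM in wild type and 55.3 and 48.5 CPM in knockout. Both knockout libraries were higher, and the wild-type replicates differed by less than those of the knockout. The fold change was 1.21 with an interval of 0.985 to 1.48 (adjusted p = 0.417), so it did not pass. Its log2 fold change of 0.27 was 0.17 without knockout replicate 1 and 0.36 without knockout replicate 2. The count ratio of Slc1a4 to Slc1a5 was 0.140 and 0.149 in the wild-type libraries, against 0.179 and 0.159 in the knockout.

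Slc38a1 and Slc38a2, which encode the system A carriers SNAT1 and SNAT2 for glutamine and alanine, are adjacent on the minus strand of chromosome 15 (96571418 to 96642913 and 96687392 to 96699730). Slc38a1 had 403 and 355 CPM in wild type and 436 and 422 CPM in knockout. Slc38a2 had 397 and 349 CPM in wild type and 410 and 412 CPM in knockout. For both genes wild-type replicate 2 was the low library, and both knockout libraries were above both wild-type libraries. Neither passed, with fold changes of 1.13 (interval 1.02 to 1.26, adjusted p = 0.277, edgeR) and 1.10 (0.989 to 1.23, adjusted p = 0.444). Slc38a1 had an unadjusted p of 0.026. Their log2 fold changes were 0.09 and 0.05 when wild-type replicate 2 was left out, and 0.27 and 0.23 when wild-type replicate 1 was. The ratio of Slc38a1 to Slc38a2 counts was nearly constant, at 1.01 and 1.02 in the wild-type libraries, against 1.06 and 1.02 in the knockout.

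Slc43a1 (LAT3, chromosome 2, 84838850 to 84863594, plus strand), a sodium-independent carrier of branched-chain amino acids, had 1 and 2 counts in the wild-type libraries and 3 and 2 in the knockout libraries. All libraries were at or under the floor of 3 counts, so the gene was not tested and no fold change is given. At these counts a small difference between the genotypes could not have been detected.

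**Figure D4:**
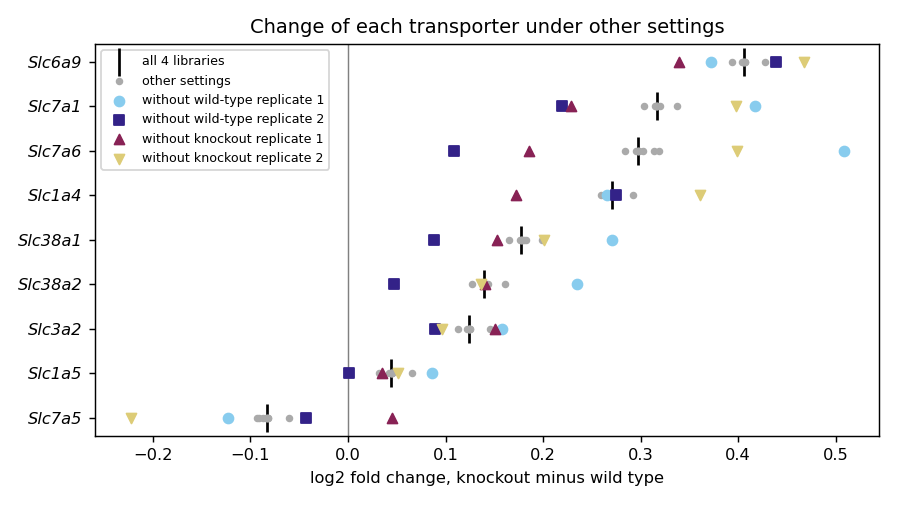
Log2 fold change of each tested transporter with all 4 libraries (black bars), without each library in turn (coloured symbols) and under 9 other settings (grey). The estimate for Slc7a1 ran from 0.22 to 0.42 and that for Slc7a5 from -0.22 to 0.04, the widest shifts coming from single libraries.

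The other surface amino acid transporters had no member past the test. Of 34 genes on this list, 15 had no count in any library and 7 were tested. Of these, 0 rose and 0 fell in edgeR, DESeq2 and limma-voom, where edgeR called 2.66% of all tested genes. In edgeR 1 had an unadjusted p under 0.05, as did 13.5% of all tested genes. The median log2 fold change was 0.09. The highest were the taurine transporter Slc6a6, at 268 ± 13.8 CPM in the wild-type libraries and 285 ± 19.5 in the knockout (n = 2, adjusted p = 0.71), Slc38a10, at 101 ± 1.21 and 87.6 ± 0.0408 (adjusted p = 0.423), and Slc7a3. Slc7a3 encodes CAT3, another cationic carrier related to Slc7a1, and was at 101 ± 7.70 and 115 ± 0.271 CPM (log2 fold change 0.19, adjusted p = 0.467). The gene under 0.05 before adjustment was Slc7a11, the cystine and glutamate exchanger, with 32 and 74 counts in the wild-type libraries, against 88 and 101 in the knockout (adjusted p = 0.321), named after its values were seen.

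Among lysosomal transporters 1 of 9 tested genes rose and 0 fell, beside 1.45% and 1.21% of all tested genes, with a median of 0.01. Of the 9, 2 had an unadjusted p under 0.05 in edgeR, beside 13.5% of all tested genes. Slc15a3, which carries histidine and small peptides out of lysosomes, went from 19.8 and 26.3 CPM in wild type to 41.0 and 39.4 CPM in knockout. It rose by 0.80 on the log2 scale (SE 0.18, adjusted p = 0.00721, edgeR), and it lost its call when wild-type replicate 1 was left out (0.61, adjusted p = 0.122) and without knockout replicate 1 (0.77, adjusted p = 0.0739). Slc38a9, an arginine-responsive lysosomal transporter that signals to mTORC1, had 27.4 and 27.1 CPM in wild type and 46.8 and 33.5 CPM in knockout. It did not pass (0.56, adjusted p = 0.0917), and without knockout replicate 2 it did (0.78, adjusted p = 0.0221), when 2 members of the list were called. Without knockout replicate 1 its estimate was 0.30 (adjusted p = 0.699). Slc15a4, a relative of Slc15a3, was at 24.9 ± 0.441 and 27.9 ± 3.39 CPM (n = 2 each, adjusted p = 0.798).

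Of 38 tested genes that link amino acid supply to mTORC1, 2 fell and 0 rose, where 1.21% of all tested genes were called as falls, and the median was 0.04. Of the 38, 4 had an unadjusted p under 0.05 in edgeR, beside 13.5% of all tested genes. Sesn3, a member of the sestrin family that restrains mTORC1, had 179 and 163 CPM in wild type and 122 and 112 CPM in knockout. It fell by 0.55 on the log2 scale (SE 0.097, adjusted p = 0.000502, edgeR) and was called under all 13 alternatives. Gatsl3, listed by RefSeq under its current name Castor1 and encoding an arginine sensor, had 55.2 and 36.5 CPM in wild type and 27.0 and 23.5 CPM in knockout. It fell by 0.86 (SE 0.182, adjusted p = 0.00421), and it lost its call when wild-type replicate 1 was left out (-0.53, adjusted p = 0.252) and without knockout replicate 2 (-0.76, adjusted p = 0.0571). Eif4ebp1, a translation repressor that mTORC1 phosphorylates, was at 189 ± 10.6 and 205 ± 1.80 CPM (n = 2 each, adjusted p = 0.606), and the lysosomal anchor Lamtor1 at 114 ± 6.01 and 109 ± 13.0 (adjusted p = 0.861).

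In the list of the ATF4 response to amino acid shortage, 2 of 25 tested genes rose and 0 fell, beside 1.45% and 1.21% of all tested genes, with a median of 0.08. Of the 25, 8 had an unadjusted p under 0.05 in edgeR, beside 13.5% of all tested genes. Both knockout libraries lay above both wild-type libraries for 12 and below for 4, beside 21.5% and 21.9% of all tested genes. Asns, which makes asparagine from aspartate and glutamine, had 167 and 180 CPM in wild type and 244 and 252 CPM in knockout. It rose by 0.52 (SE 0.0862, adjusted p = 0.000189, edgeR) and was called under all 13 alternatives. Nupr1, a stress-induced nuclear protein, had 46.6 and 52.0 CPM in wild type and 70.8 and 75.2 CPM in knockout (0.56, adjusted p = 0.00974), and lost its call without wild-type replicate 1 (adjusted p = 0.106) or knockout replicate 2 (0.105). Atf4 itself was at 1308 ± 83.1 and 1280 ± 68.1 CPM (n = 2 each, adjusted p = 0.897), with an estimate of -0.03 that turned to 0.03 when wild-type replicate 2 was left out and to 0.02 for knockout replicate 1. Its partner Ddit3 was at 585 ± 63.8 and 604 ± 16.1 (adjusted p = 0.867), and Mthfd2, a mitochondrial one-carbon enzyme, at 957 ± 27.8 and 993 ± 15.2 (adjusted p = 0.791). ATF4 is controlled mainly through translation, which these mRNA levels do not show.

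Of 28 tested enzymes that use imported amino acids, 3 rose and 0 fell, beside 1.45% and 1.21% of all tested genes, with a median of 0.09. Besides Asns, which both lists hold, these were Ppat and Odc1. Of the 28, 7 had an unadjusted p under 0.05 in edgeR, beside 13.5% of all tested genes. Both knockout libraries lay above both wild-type libraries for 13 and below for 5, beside 21.5% and 21.9% of all tested genes. Ppat, which spends glutamine at the entry to purine synthesis, had 35.7 and 35.5 CPM in wild type and 55.1 and 52.6 CPM in knockout (0.60, adjusted p = 0.0165, edgeR), and its call was lost without any 1 of the libraries (adjusted p = 0.066 and 0.117 without wild-type replicates 1 and 2, 0.156 and 0.0633 without knockout replicates 1 and 2), while its estimate stayed between 0.56 and 0.63 over the 13 alternatives. Odc1, which turns ornithine into the polyamine putrescine, had 298 and 248 CPM in wild type and 347 and 339 CPM in knockout (0.33, adjusted p = 0.0216). That call was lost without wild-type replicate 2 (0.20, adjusted p = 0.422), knockout replicate 1 (adjusted p = 0.203) or knockout replicate 2 (adjusted p = 0.0926) and with upper quartile scaling (0.0587). Mat2a, which turns methionine into S-adenosylmethionine, was at 490 ± 20.4 and 531 ± 20.6 CPM (n = 2 each, adjusted p = 0.501), and Shmt2, a mitochondrial serine enzyme, at 342 ± 7.21 and 389 ± 22.4 (adjusted p = 0.245).

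The MYC network drives transporter genes in activated T cells. Of its 6 tested genes, 0 passed in edgeR, DESeq2 and limma-voom, where edgeR called 2.66% of all tested genes. In edgeR 1 had an unadjusted p under 0.05, as did 13.5% of all tested genes. This was Max, the dimer partner of MYC. Max was at 138 ± 4.67 and 161 ± 2.63 CPM (n = 2 each, adjusted p = 0.277), and the antagonists Mnt and Mxi1 were at 26.1 ± 0.737 and 23.7 ± 1.71, and 22.1 ± 1.53 and 21.5 ± 0.199 (adjusted p = 0.833 and 0.967). Myc itself, named after its values were seen, had 19.3 and 18.8 CPM in wild type and 18.4 and 27.3 CPM in knockout. Its log2 fold change was 0.26 (adjusted p = 0.681, edgeR).

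**Figure D5:**
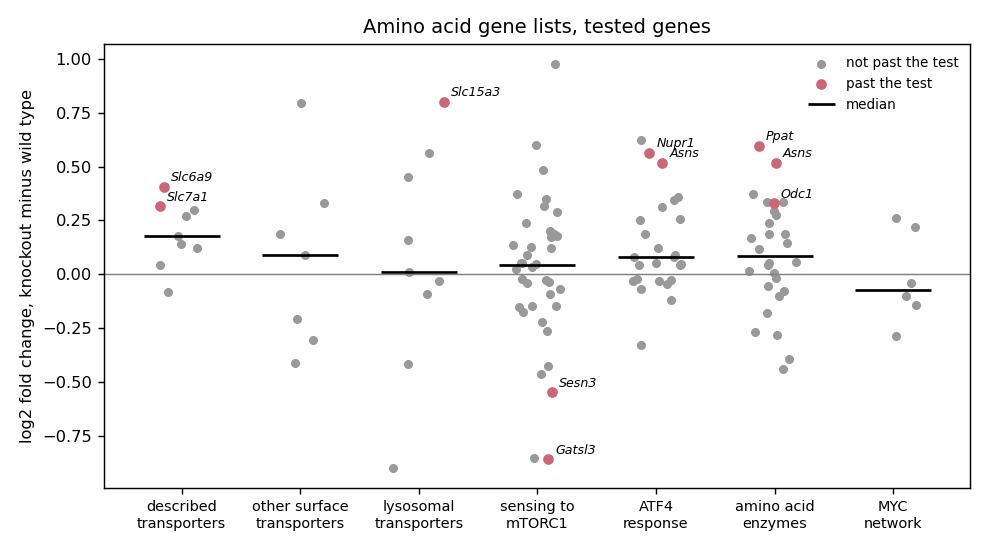
Log2 fold change, knockout minus wild type, of the tested genes of each list (points), with red points past the test in edgeR and black lines at the median. Medians lay between -0.07 and 0.18, and Asns is drawn in both lists that hold it.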

How the data were processed

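The authors deposited raw counts, in a table for each library, by gene symbol. The submitters' processing notes name Bowtie2, edgeR and the build mm10, and give no roles or versions. How reads were counted, on which annotation and with what use of strand is not given in the sources used here. Rows of the 35 repeated symbols were added together.

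Knockout was set against wild type in edgeR 4.0.16 under R 4.3.3 (filterByExpr, TMM, two-sided quasi-likelihood F test, genotype as the only term). A gene is called where its p, adjusted over all 11464 tested genes by Benjamini-Hochberg, is under 0.05, and "rose" and "fell" refer to called genes. The SE is the size of the log2 fold change divided by the square root of F, and 95% intervals use the t quantile at the fit's total degrees of freedom. Floors of 3 counts cover counting error only. Replicates differed beyond counting noise in wild type (chi-square per degree of freedom 5.40) and in knockout (5.45), so no library repeated another. In simulated data of this comparison (11257 genes), recovery was 2.08% at a 1.2-fold change, 42.0% at 1.5-fold and 66.0% at 2-fold, with 2 false calls among 102. Alternatives covered scaling, filters, DESeq2 1.42.0, limma-voom (limma 3.58.1), the ribosomal RNA precursor Rn45s, the replicate number and each library left out.

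The members and lists were chosen with earlier results of these data known. Outside the transporters, the text names the called genes of each list and its 3 most abundant tested genes, and marks any other gene as named after its values were seen. Coordinates come from GENCODE vM21 on GRCm38 (mm10), by symbol.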

Additional observations from a re-analysis of the deposited data

How the results depend on the processing

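Across 13 alternatives, 0 transporters fell, and 8 of the 9 tested kept the sign of their estimate. Slc7a5 turned to 0.0446 without knockout replicate 1, in a range of -0.2227 to 0.0446 over the left-out libraries. Of the 2 rises, 0 were called with upper quartile scaling, and 1 was called with DESeq2 and with the replicate block, in each case Slc7a1 (adjusted p = 0.042 and 0.0197). Slc7a1 was called in 10 and Slc6a9 in 6 of the 13. Leaving out 1 library left between 0 and 1 transporter rises, between 170 and 293 genes past the test, between 92 and 148 rises and between 75 and 145 falls over all genes. The median of the transporters was then 0.0892 to 0.265. Among the lists, leaving out 1 library gave 6 to 10 B cell markers, 0 to 2 lysosomal transporters, 1 to 2 sensing genes, 1 to 3 ATF4 response genes and 1 to 2 enzymes past the test. Signs also turned for the uncalled genes Ddit3 (-0.062) and Mxi1 (0.0325) without wild-type replicate 1, Atf4 without wild-type replicate 2 (0.0324) or knockout replicate 1 (0.0206), and Lamtor1 without knockout replicate 2 (0.0462). Over the left-out libraries these ran from -0.062 to 0.1592 for Ddit3, -0.1108 to 0.0325 for Mxi1, -0.0956 to 0.0324 for Atf4 and -0.1977 to 0.0462 for Lamtor1. The cause of these changes was not tested beyond the smaller number of libraries. Where a genotype has 1 library left, that library is assumed to vary like those of the other genotype.

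The labels number replicates 1 and 2 in both genotypes but do not say that a number pairs libraries. The replicate differences of the genotypes had a correlation of 0.0111 over 11464 genes, so the numbers gave no sign of pairing, and in the fit with the replicate block Slc6a9 had adjusted p = 0.0727. Depth limits Slc43a1, at the floor, and Slc7a6, with 147 to 232 counts. At 2 libraries a genotype, changes near 1.2-fold were seldom recovered in simulation. That simulation pooled genes of all levels, so it does not give recovery at the transporters' own levels. A transporter that did not pass is not shown to be the same in both genotypes, and its interval gives the sizes of change left possible.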
